A study of Solanum lycopersicum with 12 samples.

Results

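The drought main effect compared the leaf transcripts of 6 libraries from plants that had received drought, i.e., the D and US + D groups, with those of 6 libraries from plants that had not, i.e., the C and US groups. These are all 12 libraries of the series, and the treatment labels alone placed each one on its side. The plants were tomatoes of the dwarf cultivar Micro Tom, sown individually in peat discs. In D, each plant was watered with 10 ml of 20% polyethylene glycol (PEG), an osmotic agent that holds water back from the roots. In US + D, the plants were first exposed through the air, at 6 cm, to ultrasound of 30 kHz and 120 W for 5 min and then watered with the same solution. C plants had neither stimulus, and US plants had the ultrasound only. Poly-A RNA of the leaves was sequenced 48 h later, with 3 biological replicates per group. Drought here means a single PEG watering, so the model is an osmotic stress of a given strength and not a drying soil. The comparison asks which genes differ with drought on average over plants with and without ultrasound, since both sides hold 3 libraries with ultrasound and 3 without.

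Water deficit in leaves is known for a few gene programmes. The hormone abscisic acid (ABA) accumulates, binds its receptors and thereby holds back phosphatases that otherwise keep the response off. Late embryogenesis abundant (LEA) proteins and dehydrins, first known from drying seeds, protect membranes and enzymes, while lipid-transfer proteins carry lipids to the cuticle. Aquaporins of the plasma membrane (PIP) and of the vacuole (TIP) set how easily water crosses membranes. Proteinase inhibitors and leucine aminopeptidases of tomato leaves, in contrast, are the classical markers of wounding and jasmonate.

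Of 34075 genes in the table, 22157 passed the filter on low counts. Total counts ranged from 33640280 to 87164190 per library in the drought groups and from 36766633 to 106829565 in the groups without drought. The deepest libraries were C replicates 2 and 3 and US + D replicate 3. Of the spread of log2 levels over all the tested genes, 69.4% lay between replicates of the same group, 10.8% between drought and no drought, 11.2% between ultrasound and none, and 8.55% in the interaction of both. Each term takes some share even where nothing differs, and that share was not subtracted. The leaf identity of the samples was not checked, since the gene descriptions at hand cover few photosynthesis genes. In RNA of whole leaves, fewer cells of a type and less RNA per cell cannot be told apart.

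No gene was called for drought. edgeR's quasi-likelihood test gave 0 of 22157 genes (0%) at an adjusted p under 0.05 with a log2 difference beyond 0.58 in either direction, and the smallest adjusted p was 0.257. Before adjustment, 1532 genes had a p under 0.05 (6.91%), of which 655 were higher (2.96%) and 877 lower (3.96%) in drought. These genes are called nominally higher or lower below, which is a description and not a call. The other tools gave more: DESeq2 called 66 genes (40 higher and 26 lower, with 1994 at an unadjusted p under 0.05), and limma voom with quality weights called 2 (with 2591). The number of nominal genes depended on single libraries and was 977 without D replicate 2. The p-values were not far from even, with 1532 genes in the lowest of 20 bins, a mean of 1107.8 per bin and 949 in the emptiest.

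**Figure D1:**
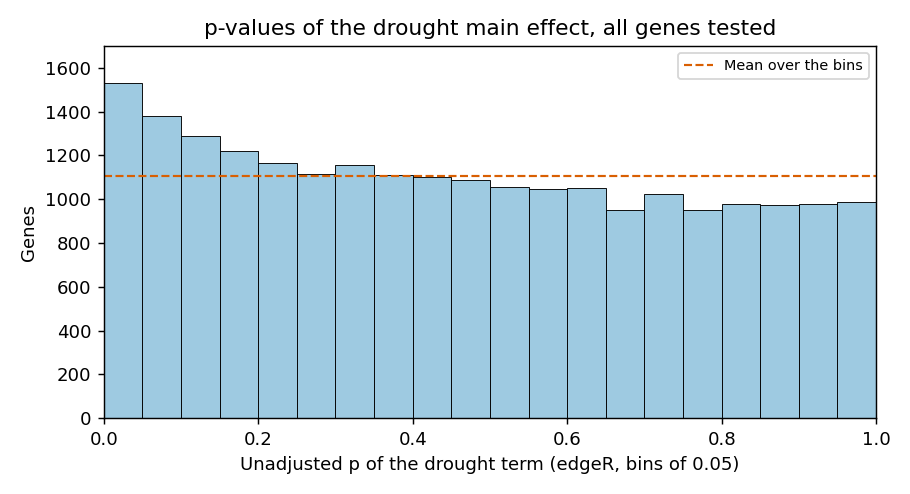
Histogram of the unadjusted edgeR p-values of the drought term over the 22157 genes tested (x axis, bins of 0.05), with the number of genes on the y axis and the mean over the bins as a dashed line. The lowest bin holds 1532 genes, and the emptiest bin, in the upper part of the range, holds 949.

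The 6 drought libraries lay entirely above or below the other 6 for 57 genes (0.257%), with 23 above (0.104%) and 34 below (0.153%). An unadjusted p under 0.001 was reached by 27 genes (0.122%), 15 higher and 12 lower, and 9 genes met both conditions. Gene names were available for 1220 of the tested genes, from tables in which the study described its own differentially expressed or methylated genes. Since most of those genes were listed from these same libraries, 19.8% of the described genes were nominally higher and 19.8% nominally lower, far more than over all genes. A small p of a described gene is therefore not independent evidence. The counts of each gene family are best read beside these shares, which also cover genes that the study listed for methylation. The share among genes listed for expression alone was not computed and may be higher.

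The gene nearest to a call encodes a lipid-transfer protein of the 2S albumin superfamily (Solyc06g069070.1.1, chromosome 6, 40502827 to 40503111, + strand, SL4.0). It had 31.0, 32.1 and 35.8 CPM (the reads of a gene relative to its library total) in the D libraries and 24.0, 19.8 and 29.2 CPM in the US + D libraries, against 9.48, 10.4 and 11.9 CPM in C and 15.9, 7.26 and 9.10 CPM in US. All the drought libraries were higher than every library without drought, and the difference was present with and without ultrasound. The mean was 28.7 ± 5.80 CPM in drought and 10.7 ± 3.0 CPM without (SD, n = 6 each), and the log2 difference was 1.41 (standard error 0.19, edgeR adjusted p = 0.257). DESeq2 gave this gene an adjusted p of 9.2e-08, the lowest of the alternatives tried, and edgeR gave 0.931, the highest, once D replicate 1 was left out. In edgeR without US replicate 1, it was 0.0030.

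A pair of seed-type genes showed the same separation at much lower levels. An oleosin (Solyc03g112440.1.1, chromosome 3), a coat protein of lipid droplets, had 1.88, 2.95 and 2.26 CPM in D and 1.06, 1.49 and 1.44 CPM in US + D, against 0.531, 0.796 and 0.683 CPM in C and 0.411, 0.401 and 0.960 CPM in US. Its log2 difference was 1.5 (standard error 0.29). A vicilin-like seed storage protein (Solyc02g085590.4.1, chromosome 2) had 5.83, 5.04 and 5.54 CPM in D and 1.65, 1.32 and 1.71 CPM in US + D, against 0.468, 0.796 and 0.332 CPM in C and 0.914, 0.0471 and 0.226 CPM in US. Both genes were thus highest in D, intermediate in US + D and lowest in the groups without drought. The log2 difference of the vicilin-like gene was 2.68 (standard error 0.55) and became 3.42 without US replicate 1, where its adjusted p was 0.0186. Both had an edgeR adjusted p of 0.656 with all the libraries.

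A further pair of genes with all the drought libraries above the rest had smaller log2 differences. Their edgeR adjusted p was also 0.656, and DESeq2 called both. The DNA mismatch repair protein MutS (Solyc10g018530.2.1) had 32.3, 72.6 and 28.8 CPM in D and 21.9, 32.5 and 29.2 CPM in US + D, against 19.4, 14.1 and 16.8 CPM in C and 19.0, 12.1 and 15.6 CPM in US. The second D library stood far above the others, and without it the log2 difference was 0.85 instead of 1.12. The nuclear transcription factor Y subunit C-2 (Solyc02g091030.4.1), part of a trimeric factor that binds CCAAT boxes, had from 56.8 to 71.0 CPM (median 66.7) over the drought libraries and from 27.5 to 55.6 CPM (median 41.0) over those without. Its log2 difference was small, 0.68 (standard error 0.15).

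Some genes with a large mean difference did not separate the libraries. A malic enzyme (Solyc03g120990.3.1), which turns malate into pyruvate, had 30.1, 8.91 and 45.4 CPM in D and 68.4, 44.1 and 24.0 CPM in US + D, against 7.33, 12.5 and 9.81 CPM in C and 6.72, 6.76 and 9.18 CPM in US. Only D replicate 2 lay among the libraries without drought, and the log2 difference was 2.05 (standard error 0.40). A glycosyltransferase (Solyc05g055343.2.1) had a log2 difference of 0.87, from 6.94 to 13.7 CPM in drought and from 4.53 to 7.23 CPM without. Among unannotated genes, the largest difference of all, 6.42, belonged to Solyc04g017640.1.1, with a mean of 0.503 CPM in drought and 0.00316 CPM without. Since a library with a count of 0 may still hold up to 3 counts, and 3 counts made from 0.0275 to 0.0877 CPM over the libraries, its fitted difference depends on the small value that edgeR adds to each count.

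**Figure D2:**
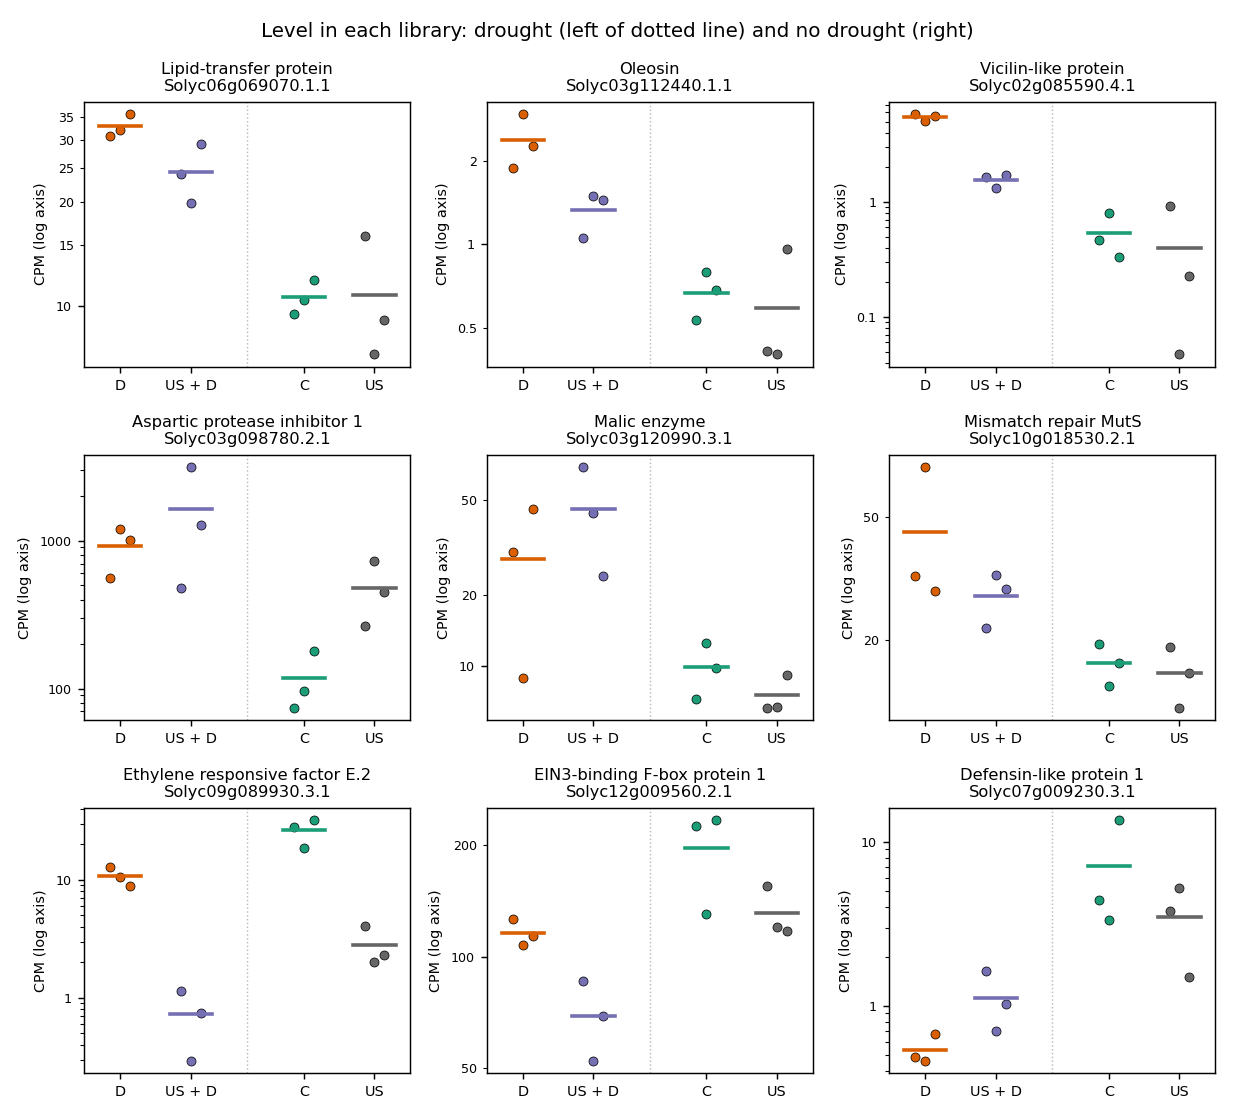
Level of 9 genes in each of the 12 libraries, in CPM on a log axis (y), by group (x), with the drought groups D and US + D left of the dotted line and C and US right of it. Points are libraries and bars are group means (n = 3). The lipid-transfer protein, the oleosin, the vicilin-like protein and MutS have all the drought libraries above the rest, the ethylene responsive factor E.2 is lower in drought within each pair of groups, and the aspartic protease inhibitor overlaps between drought and US.

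Genes were then grouped by their description, and 14 proteinase inhibitors and leucine aminopeptidases formed the most uniform family. All 14 were nominally higher in drought, beside 2.96% of all genes and 19.8% of the described genes, and their log2 differences ran from 1.17 to 4.29 with a median of 2.35, beside -0.02 over all genes tested and -0.06 over the described ones. All 14 were also higher in each stratum taken alone, i.e., in plants without and with ultrasound, with a median of 2.31 for D over C and of 2.34 for US + D over US. None had an edgeR adjusted p under 0.05, and the drought libraries overlapped with the rest in every one of them. Since being described depended partly on these same libraries, the uniformity of the family is not independent evidence. In voom, 9 of the 14 were nominally higher, and without US + D replicate 2, 10 were, with a median of 2.04. Several are neighbours with like names, such as 3 on chromosome 3 and a pair of leucine aminopeptidases on chromosome 12, and the counting could split reads between near-identical copies, so the values of single members are uncertain.

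The most abundant of them was the metallocarboxypeptidase inhibitor (Solyc07g007250.4.1), which blocks carboxypeptidases in the gut of insects. It had 1358, 1862 and 2050 CPM in D and 906, 5343 and 4396 CPM in US + D, against 214, 242 and 504 CPM in C and 1058, 1761 and 1135 CPM in US. D exceeded C in every library, whereas US + D replicate 1 was below all the US libraries. Its log2 difference was 1.94 (standard error 0.43). The aspartic protease inhibitor 1 (Solyc03g098780.2.1) had 560, 1200 and 1007 CPM in D and 478, 3147 and 1284 CPM in US + D, against 74.3, 96.5 and 180 CPM in C and 265, 723 and 448 CPM in US, with a log2 difference of 2.38 (standard error 0.49). Here a single US library, at 723 CPM, reached into the range of the drought libraries, and both strata pointed up, by 2.98 for D over C and 1.77 for US + D over US.

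The largest difference of the family belonged to the cathepsin D inhibitor protein (Solyc03g098790.3.1, chromosome 3, 55578934 to 55579596), a neighbour of the aspartic protease inhibitor. It had 2.17, 10.9 and 30.3 CPM in D and 6.34, 514 and 50.1 CPM in US + D, against 0.0425, 2.65 and 0.370 CPM in C and 4.36, 4.41 and 11.8 CPM in US. US + D replicate 2 was far above every other library, and D overlapped with C. Leucine aminopeptidase A1 (Solyc12g010020.3.1), an exopeptidase induced by wounding in tomato, had 7.90, 11.4 and 12.3 CPM in D and 4.93, 271 and 67.8 CPM in US + D, against 1.02, 1.56 and 4.32 CPM in C and 7.45, 2.59 and 5.06 CPM in US. Its log2 difference of 3.35 (standard error 0.85) became 2.5 without US + D replicate 2. A second leucine aminopeptidase (Solyc12g010030.3.1), with a log2 difference of 2.99, had 2.14 without that library and 3.9 without C replicate 3.

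Summed over the 14 genes, the family held 2316, 4770 and 4571 CPM in D and 1757, 20497 and 10973 CPM in US + D, against 401, 1058 and 844 CPM in C and 2016, 3301 and 3402 CPM in US. Each D library was above each C library, and each US library was above each C library as well. In US + D, replicates 2 and 3 exceeded every other library, but replicate 1 lay below all the US libraries. The sums of D and US overlapped.

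LEA proteins, oleosins and other seed-type proteins were the next family. Of 16, 11 were nominally higher, beside 19.8% of the described genes, and 0 nominally lower, with a median log2 difference of 1.57. The median was 2.31 for D over C and 0.62 for US + D over US, a difference that was not tested for the family. Summed CPM were 253, 204 and 192 in D and 106, 148 and 107 in US + D, against 39.6, 61.8 and 61.8 in C and 92.6, 47.9 and 131 in US. The D libraries were thus the highest, and US replicate 3 was higher than 2 of the 3 US + D libraries. The number of nominally higher members was 6 without C replicate 1, and to 7 without C replicate 2 or C replicate 3.

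Within this family, the LEA protein Solyc12g010820.2.1 had log2 differences of 1.14 for D over C and 0.90 for US + D over US. It had 4.65, 4.20 and 4.38 CPM in D and 2.49, 3.13 and 3.22 CPM in US + D, against 1.55, 3.08 and 1.36 CPM in C and 1.87, 1.34 and 1.53 CPM in US, and only C replicate 2 overlapped with the drought libraries. The LEA protein D-29 (Solyc12g098900.2.1) had 101, 72.8 and 62.9 CPM in D and 14.9, 4.85 and 30.0 CPM in US + D, against 8.16, 3.08 and 9.61 CPM in C and 26.3, 3.35 and 3.95 CPM in US. Its drought difference therefore came mostly from D, with 3.51 for D over C and 0.57 for US + D over US. The tonoplast intrinsic protein 3.2 (Solyc03g019820.3.1), a seed-type aquaporin, had 47.0, 29.3 and 42.2 CPM in D and 7.07, 1.64 and 15.2 CPM in US + D, against 1.55, 1.08 and 0.845 CPM in C and 14.3, 0.377 and 0.141 CPM in US. A single US library, at 14.3 CPM, was near the US + D libraries, and the standard error was 1.31. Without US replicate 1, its log2 difference was 5.03 instead of 2.88 and its edgeR adjusted p was 0.0186 instead of 0.722.

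Of 8 lipid-transfer proteins, 6 were nominally higher, beside 19.8% of the described genes, and 0 nominally lower, with a median of 1.30. Summed CPM were 474, 602 and 354 in D and 183, 267 and 321 in US + D, against 112, 127 and 65.4 in C and 230, 92.2 and 209 in US. As for the LEA proteins, the D libraries were the highest, and US + D overlapped with US. The most abundant member (Solyc08g078870.3.1) averaged 227 ± 118 CPM in drought and 64.2 ± 45.1 CPM without (SD, n = 6 each). The count of nominally higher members was 3 without C replicate 1, without C replicate 3 or without D replicate 2, and 4 without C replicate 2 or D replicate 1.

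**Figure D3:**
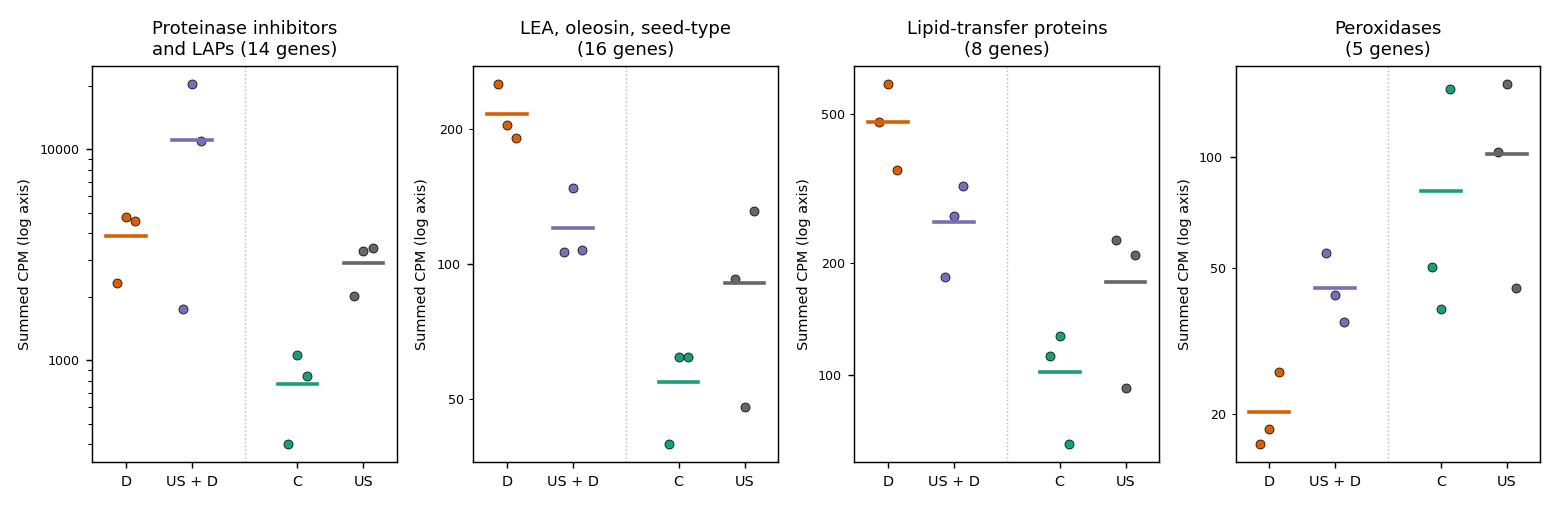
Summed level of 4 gene families in each library (y axis, CPM on a log axis) by group (x axis), with D and US + D left of the dotted line and C and US right of it. Points are libraries and bars are group means (n = 3). The proteinase inhibitors reach 20497 CPM in US + D replicate 2, the LEA and lipid-transfer families are highest in D, and the peroxidases are lowest in D.

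Peroxidases were the most uniform family in the other direction. These enzymes use hydrogen peroxide, among other things to stiffen cell walls. All 5 were nominally lower in drought, beside 3.96% of all genes and 19.8% of the described ones, with log2 differences from -3.80 to -0.90 and a median of -2.49. Both strata were negative for each of them, with medians of -4.00 for D over C and -1.13 for US + D over US. As for the proteinase inhibitors, being described depended partly on these same libraries, so the uniformity is not independent evidence. Summed CPM were 16.6, 18.2 and 26.0 in D and 54.6, 42.0 and 35.6 in US + D, against 50.1, 38.7 and 153 in C and 103, 158 and 43.9 in US. Each D library was below all the libraries without drought, whereas 2 of the 3 US + D libraries lay within their range. Without C replicate 3 the median was -1.62. The peroxidase with the largest difference (Solyc05g010330.4.1) had 0, 0 and 2 counts in D and 16, 0 and 8 in US + D, against 16, 24 and 277 in C and 54, 69 and 16 in US, so its log2 difference of -3.80 rests on few reads.

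Ethylene is the gaseous hormone of ripening and stress. A set of 16 genes was grouped under ethylene by description. It includes an ethylene-forming enzyme, ethylene overproducer-like 1 and an ethylene-responsive heat shock protein cognate 70. The last is also counted with the heat shock proteins below. Of the 16, 6 were nominally lower and 0 nominally higher (median -0.46), beside 19.8% of the described genes in each direction. With drought alone in the model, 2 were lower and 1 higher, and with 4 group means 7 were lower and 2 higher. The ethylene responsive factor E.2 (Solyc09g089930.3.1, chromosome 9, 65643193 to 65643915, + strand), a transcription factor, had 12.8, 10.6 and 8.96 CPM in D and 1.14, 0.292 and 0.738 CPM in US + D, against 28.1, 18.8 and 32.1 CPM in C and 4.04, 2.03 and 2.29 CPM in US. The D libraries were all below C (log2 difference -1.29) and the US + D libraries all below US (-1.94), but the 6 drought libraries overlapped with the other 6, since US was lower than D. Over both, the log2 difference was -1.59 with a standard error of 0.30. Its edgeR adjusted p was 0.656, with 0.000407 in DESeq2 and 0.999 in edgeR without D replicate 2 as the extremes, and the interaction had an unadjusted p of 0.291.

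EIN3-binding F-box protein 1 (Solyc12g009560.2.1), which marks the central ethylene transcription factors for breakdown, had 127, 108 and 113 CPM in D and 86.1, 52.3 and 69.2 CPM in US + D, against 226, 131 and 234 CPM in C and 156, 120 and 117 CPM in US. Within each stratum the drought libraries were all lower, and the log2 difference was -0.84 (standard error 0.17). The receptor genes ETR4 (Solyc06g053710.3.1) and ETR5 (Solyc11g006180.2.1) had log2 differences of -0.48 and -0.53. ETR4 averaged 13.0 ± 2.97 CPM in drought and 18.4 ± 5.27 CPM without, and ETR5 23.8 ± 11 CPM in drought and 31.9 ± 7.99 CPM without (SD, n = 6 each). The libraries of the 2 sides overlapped for both receptors.

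Of the aquaporins, the tonoplast intrinsic protein 2.2 (Solyc03g120470.4.1) had 146, 117 and 164 CPM in D and 230, 254 and 236 CPM in US + D, against 397, 292 and 246 CPM in C and 227, 417 and 399 CPM in US, with a log2 difference of -0.83 (standard error 0.20). Its D libraries were all below the C libraries, and the US + D libraries overlapped with US at a single library of 227 CPM. The plasma membrane intrinsic protein 1.5 (Solyc08g081190.3.1) had 673, 782 and 693 CPM in D and 604, 627 and 695 CPM in US + D, against 918, 890 and 1194 CPM in C and 828, 790 and 837 CPM in US. All the drought libraries were below all the others, and the difference was small, -0.42 (standard error 0.13, edgeR adjusted p = 0.665). With TIP3.2, which is also counted above as a seed-type gene, 2 aquaporins were nominally lower and 1 was nominally higher. Over the described genes, 19.8% were nominally lower and 19.8% nominally higher.

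Several lower genes were at low levels. A defensin-like protein 1 (Solyc07g009230.3.1), a small antimicrobial peptide, had 0.490, 0.463 and 0.675 CPM in D and 1.63, 0.702 and 1.03 CPM in US + D, against 4.40, 3.34 and 13.6 CPM in C and 3.77, 5.23 and 1.5 CPM in US. Only US replicate 3 overlapped with the drought libraries, and the log2 difference was -2.66 (standard error 0.55). A CASP-like protein (Solyc02g069730.3.1) had a log2 difference of -3.36, with from 0.0241 to 0.244 CPM in drought and from 0.183 to 2.27 CPM without, and -2.56 without C replicate 3. A pentatricopeptide repeat protein (Solyc05g014490.3.1), of a family that acts on RNA of organelles, separated all the libraries, with from 3.87 to 6.53 CPM in drought and from 7.08 to 9.34 CPM without. The EPIDERMAL PATTERNING FACTOR-like protein 8 (Solyc08g015940.3.1), of a peptide family known for spacing stomata, did so too, with from 1.99 to 3.52 CPM in drought and from 3.82 to 5.99 CPM without, and had a log2 difference of -0.85. A HXXXD-type acyl-transferase (Solyc05g052670.1.1) was lower by 1.22 in D than in C and by 1.61 in US + D than in US on the log2 scale.

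Smaller families pointed one way with fewer members. Their counts stand beside 19.8% nominally higher and 19.8% nominally lower over all the described genes. Of 8 genes of DNA replication and repair, 6 were nominally higher and 0 lower, with a median of 1.03, and of 0.88 for D over C and 0.84 for US + D over US. Besides MutS they include a pair of replication protein A 70 kDa subunits, which bind single-stranded DNA, with log2 differences of 1.28 (Solyc12g042110.3.1) and 1.07 (Solyc05g041780.1.1). Of 5 NAC factors, 4 were nominally lower and 1 higher, with 2 lower when drought was alone in the model. Solyc08g006020.4.1 had a log2 difference of -2.14 and Solyc07g066330.3.1 of -2.28, and the higher one (Solyc02g084350.3.1) averaged 4.85 ± 2.46 CPM in drought and 2.67 ± 1.09 CPM without (SD, n = 6 each). Of 3 clock genes, APRR5 (Solyc03g115770.3.1, log2 difference 1.0) and EARLY FLOWERING 4 (Solyc06g051680.1.1, log2 difference 1.68) were nominally higher, and APRR9 (Solyc03g081240.3.1) had 0.57. For all 3 the difference of D over C exceeded that of US + D over US, with medians of 1.44 and 0.54. A listed clock gene described only as a two-component response regulator (Solyc06g005680.4.1) was nominally higher by 0.91. With APRR5 and APRR9 it formed a list with medians of 1.44 and 0.15, and 2 of these 3 had the same sign in both strata. Of 8 genes of sugar metabolism and transport, 4 were nominally higher and 1 lower, among them a sucrose synthase (Solyc09g098590.4.1), which averaged 108 ± 42.7 CPM in drought and 50.7 ± 17.5 CPM without.

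Heat shock proteins, factors and chaperones had 4 of 12 members nominally higher and 1 lower, with a median of 0.60. The median was 0.87 for D over C and -0.14 for US + D over US, and 6 of the 12 had the same sign in both. Cytochrome P450 genes had 4 of 14 nominally lower and 0 higher, again with a larger median for D over C (-1.83) than for US + D over US (-0.41). Cell wall genes showed no common direction, with 6 of 31 nominally higher, 4 lower and a median of 0.01, and 2 lower without any one D library. CASP-like proteins had 1 nominally higher and 2 lower of 6. Over all the described genes, 19.8% were nominally higher and 19.8% nominally lower. Whether the counts of these families exceed those shares was not tested.

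**Figure D4:**
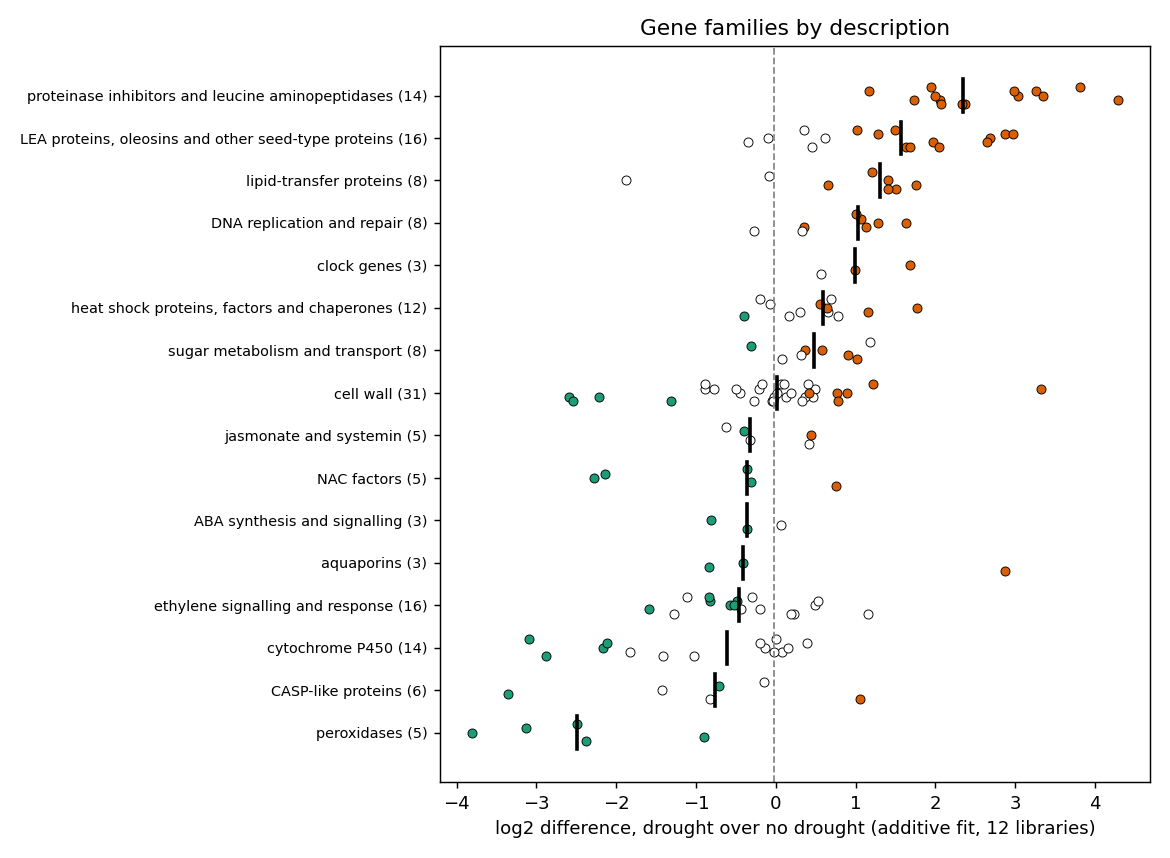
Log2 difference of drought over no drought from the additive edgeR fit (x axis) for each member of 16 families grouped by description (y axis, number of members in brackets). Filled points have an unadjusted p under 0.05 (orange higher, green lower), open points do not, black bars are family medians and the dashed line is the median of all genes tested, -0.02. The 14 proteinase inhibitors and leucine aminopeptidases lie at 1.17 or more, and the 5 peroxidases at -0.90 or less.

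Lists of 148 genes of pathways known from drought and wounding were also followed, of which 33 had a description and could be named, all of them tested. Of 9 genes described as LEA or abscisic acid stress ripening (ASR) proteins, 7 were nominally higher and 0 lower (median 1.63). The ASR member (Solyc04g071590.3.1) had a log2 difference of -0.35, and no listed dehydrin had a description. Of 5 oleosins, caleosins and seed-type TIPs, 3 were higher and 0 lower (median 1.5). Of 6 wound-induced proteinase inhibitors and aminopeptidases 6 were higher (median 2.19). The members of these lists were already counted in the families above and are not further evidence. Only described genes could be used, of which 19.8% were nominally higher, beside 2.96% of all genes, and 19.8% nominally lower, beside 3.96%. The ABA synthesis gene notabilis (Solyc07g056570.1.1), the step that limits ABA production, had 34.5, 37.2 and 29.2 CPM in D and 6.40, 10.0 and 11.2 CPM in US + D, against 23.0, 22.9 and 41.7 CPM in C and 8.45, 3.98 and 16.9 CPM in US. Its log2 difference was 0.06 (standard error 0.30), and all the libraries of D and C were above all those of US + D and US. Of 3 genes of ABA perception, the receptors PYL5 (Solyc10g085310.1.1) and PYL10 (Solyc01g095700.3.1) were nominally lower, by 0.81 and by 0.36 on the log2 scale, and a protein phosphatase 2C (Solyc06g076400.3.1), a brake on ABA signalling, had a difference of 0.31. Of PYL5, PYL10 and notabilis, 0 were nominally lower with drought alone in the model, and 1 was when any one US library, D replicate 3 or either of US + D replicates 1 and 2 was left out. PYL5 had 2.27, 4.08 and 5.11 CPM in D and 14.4, 15.9 and 9.46 CPM in US + D, against 9.61, 7.36 and 9.04 CPM in C and 10.5, 19.3 and 24.3 CPM in US, so that the 3 lowest libraries were those of D.

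Prosystemin (Solyc05g051750.3.1), the precursor of the wound peptide systemin, had 208, 191 and 233 CPM in D and 146, 98.2 and 115 CPM in US + D, against 145, 94.2 and 83.5 CPM in C and 137, 118 and 142 CPM in US. Its D libraries were the highest, and the other groups overlapped, with a log2 difference of 0.41 (standard error 0.23). Allene oxide synthase (Solyc11g069800.1.1), an early enzyme of jasmonate synthesis, was nominally lower by 0.40. In contrast, a lipoxygenase (Solyc09g055900.4.1) was nominally higher by 0.44. Of 5 genes grouped under jasmonate and systemin, 1 was nominally higher and 1 lower. The jasmonate ZIM domain protein Solyc08g036620.4.1 had 30, 69 and 17 counts in US + D and 81 counts in US replicate 3, with 0 counts in every D library and at most 10 in a C library, and its log2 difference of -0.32 changed sign with the settings. Proline dehydrogenase (Solyc02g089620.3.1), which breaks down proline, had from 0.695 to 106 CPM over the drought libraries and from 1.32 to 72.9 CPM over the others. Chlorophyllase (Solyc09g065620.3.1), an enzyme of chlorophyll breakdown, had 31.8, 28.9 and 42.5 CPM in D and 30.5, 36.9 and 25.8 CPM in US + D, against 10.5, 8.68 and 5.17 CPM in C and 31.9, 13.5 and 40.2 CPM in US, a difference of 2.09 for D over C and of 0.12 for US + D over US.

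The drought difference can also be taken from separate libraries in plants without ultrasound (D over C) and with it (US + D over US). Each stratum was also fitted on its own. D over C had 2548 genes at an unadjusted p under 0.05 (11.5%) and 4 at an adjusted p under 0.05, and US + D over US had 511 (2.31%) and 0. Across all genes, the log2 differences of the strata were nearly unrelated (Pearson r = 0.05, Spearman rho = 0.02, 22157 genes, which are not independent replicates), and 50.4% of the genes had the same sign in both. Among the 2548 genes of D over C, 53.6% had the same sign in US + D over US. Among the 511 genes of US + D over US, 58.1% had the same sign in D over C. At stricter cutoffs for D over C, the share was 51.1% of 642 genes (p under 0.01) and 41.4% of 87 genes (p under 0.001). For US + D over US, it was 59.6% of 57 genes and 1 of 3 genes at these cutoffs. Restricting the genes to a mean of at least 10 CPM left the share of the same sign at 50.2%. The libraries of a stratum did not overlap, in the same direction in both strata, for 176 genes (0.794%), and in opposite directions for 158 genes (0.713%).

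An unadjusted p under 0.05 in both strata was reached by 96 genes (0.433% of those tested, beside 11.5% for D over C and 2.31% for US + D over US). Of these, 23 were higher in both, 36 lower in both and 37 opposite. Many of the genes named next were picked for a small p over all the libraries, which are those of both strata. Their small p in each stratum is therefore not separate support. The genes higher in both included the lipid-transfer protein and the oleosin described first, the malic enzyme, MutS, the aspartic protease inhibitor 1, leucine aminopeptidase A1, the cathepsin D inhibitor protein and the LEA protein Solyc12g010820.2.1. Those lower in both included the ethylene responsive factor E.2, EIN3-binding F-box protein 1, the defensin-like protein 1, a glutamate dehydrogenase (Solyc06g033860.2.1, log2 difference -1.39) and the homeobox-leucine zipper protein HOX14 (Solyc03g034150.2.1, log2 difference -3.51). The last had a mean of only 0.0839 CPM in drought and 0.964 CPM without.

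**Figure D5:**
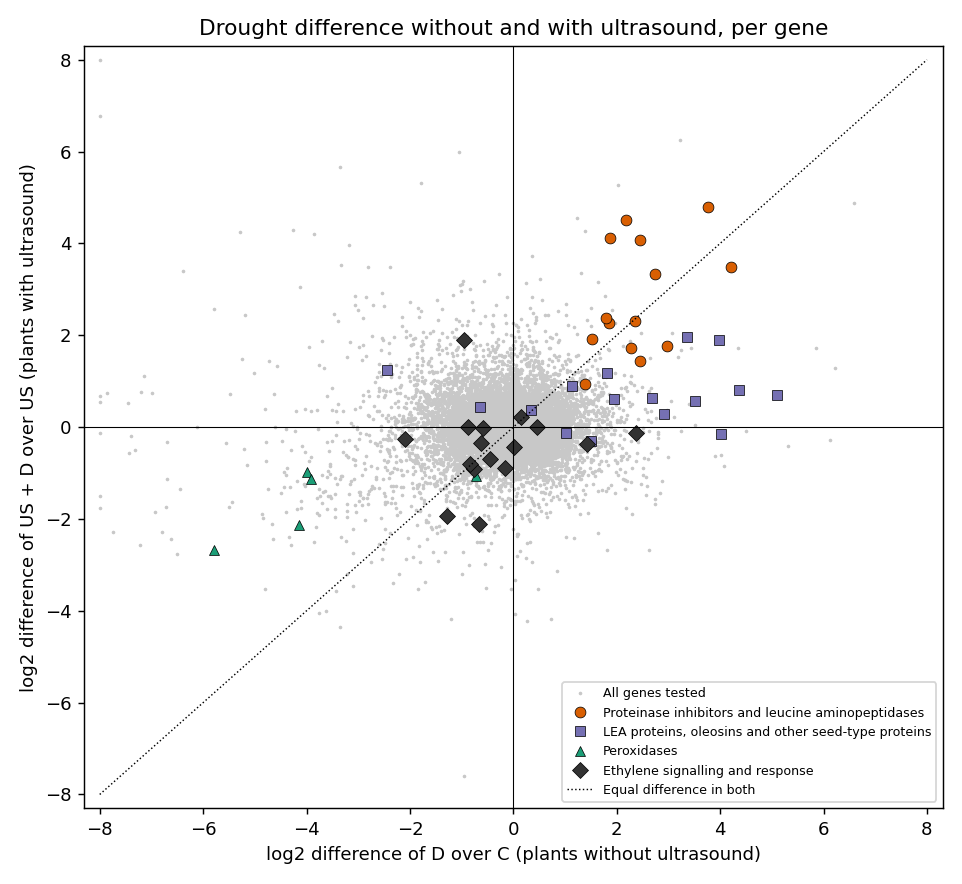
Log2 difference of D over C (x axis) against that of US + D over US (y axis) for the 22157 genes tested, from libraries that the axes do not share. Grey points are all genes, coloured symbols are members of 4 families, the dotted line marks equal differences, and 7 genes beyond 8 are drawn at 8. Points come from the fit with 4 group means. The grey cloud shows little slope (Pearson r = 0.05 in separate fits of the strata). The proteinase inhibitors lie high on both axes, and most LEA and seed-type genes lie right of the dotted line.

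The interaction of drought and ultrasound had 0 genes at an edgeR adjusted p under 0.05, with a smallest adjusted p of 0.175, and 1422 at an unadjusted p under 0.05 (6.42%). A CASP-like protein (Solyc11g012590.3.1) had 139, 121 and 97.3 CPM in D and 33.5, 34.4 and 46.3 CPM in US + D, against 29.6, 23.5 and 26.0 CPM in C and 51.7, 32.9 and 36.3 CPM in US. D was above all other groups, with a log2 difference of 2.18 for D over C beside -0.08 for US + D over US, and its main effect was 1.05. MTD1 (Solyc08g061490.3.1) had 15, 17.8 and 15.3 CPM in D and 6.64, 4.59 and 4.77 CPM in US + D, against 8.74, 5.37 and 7.88 CPM in C and 18.4, 15.2 and 12.6 CPM in US. D was above C and US + D below US without overlap, so that the main effect was near 0, at -0.19 (standard error 0.46).

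DESeq2 called 66 genes for drought, 56 of them with a description. Their adjusted p in edgeR was 0.257 for the lipid-transfer protein and 0.656 or more for the others. With 1 library left out at a time, DESeq2 called as few as 19 genes (D replicate 1 left out) and as many as 234 (US replicate 1 left out), and 15 genes were called every time. Higher in drought among these 15 were the lipid-transfer protein, the oleosin, the vicilin-like protein, the malic enzyme, the glycosyltransferase, the receptor-like protein kinase INRPK1c (Solyc03g123860.4.1, edgeR log2 difference 0.61), the aspartic protease inhibitor 1, the metallocarboxypeptidase inhibitor and a proteinase inhibitor type-2 (Solyc03g098795.1.1, 3.03). Lower were the ethylene responsive factor E.2, EIN3-binding F-box protein 1, the defensin-like protein 1, the CASP-like protein Solyc02g069730.3.1, the pentatricopeptide repeat protein and the HXXXD-type acyl-transferase. All 15 had a description.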

How the data were processed

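The authors deposited 1 table of raw counts per gene, for which reads trimmed with fastp had been mapped by Hisat2 to SL4.0 and assigned by FeatureCounts to genes of ITAG4.0. Strand and multi-mapping settings are not given in the sources used here. The counts were used as deposited in R (4.3.3) with edgeR (4.0.16): filterByExpr by group, TMM scaling (CPM use it too), and a quasi-likelihood model with drought and ultrasound as additive factors over the 12 libraries. The interaction and the differences of single genes and families within strata came from 4 group means. Gene counts by p, correlations and shares of the same sign between strata came from separate fits of 6 libraries each. A call needed a Benjamini-Hochberg adjusted p under 0.05 and a log2 difference beyond 0.58. Standard errors were derived from the F statistic and are approximate. 

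Named genes were, per direction, the 12 of smallest p, the 5 largest of those without overlap and under 0.001, the 3 most abundant under 0.001, up to 3 per list, TIP3.2, chlorophyllase and the ethylene responsive factor E.2, and the 3 of smallest interaction p. Genes named from families or in the closing section were chosen after their values were seen. Gene descriptions came from the supplementary tables of the study, whose values were not used. Members, lists and families were chosen with earlier results of these data known. Alternatives were DESeq2 (1.42.0), limma (3.58.1) voom, other filters and scaling, and left-out libraries. Figures were drawn with matplotlib (3.10.9). A count of 0 allows up to 3 counts, for counting error only.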

Additional observations from a re-analysis of the deposited data

Results flagged for a closer look

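Genes whose strata separated in opposite directions: in MTD1 (Solyc08g061490.3.1), all the D libraries lay above all the C libraries and all the US + D libraries below all the US libraries, and the log2 difference of US + D over US less that of D over C was -2.66. The same held for a senescence regulator of the DUF584 family (Solyc02g080580.1.1), with -2.53. In the edgeR test of the interaction, their adjusted p was 0.175 and 0.227, so neither difference passed the threshold of 0.05.

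In 3 genes a single library stood apart from the other 5 of its side by more than Dixon's 95% critical value, which chance exceeds in about 1 of 20 groups. Both sides of 42 described named genes were searched, on log2 CPM, so a few such libraries come by chance. MutS (Solyc10g018530.2.1) had 72.6 CPM in D replicate 2 beside from 21.9 to 32.5 CPM in the other drought libraries. The jasmonate ZIM domain protein (Solyc08g036620.4.1) had 2.29 CPM in US replicate 3. Allene oxide synthase (Solyc11g069800.1.1) had 57.9 CPM in US replicate 2 beside from 35.7 to 42.6 CPM in the other libraries without drought.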

How the results depend on the processing

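In edgeR, the count of called genes stayed at 0 with RLE normalization, no filter or a stricter filter on low counts, the adjusted p alone, a robust fit, 4 group means, drought alone in the model, thinning to 33640280 counts and a replicate block. With 1 library left out it ranged from 0 to 3, and the 3 genes, called without US replicate 1, were the lipid-transfer protein, the vicilin-like gene and TIP3.2. DESeq2 called 66. With 1 library left out, an alternative chosen after seeing the data, it called 19, 24 and 46 without D replicates 1, 2 and 3, 163, 91 and 66 without US + D replicates 1, 2 and 3, 54, 158 and 71 without C replicates 1, 2 and 3, and 234, 29 and 182 without US replicates 1, 2 and 3. limma voom called 2. Genes at an unadjusted p under 0.05 numbered 2591 in voom and from 977 to 2161 with 1 library left out. DESeq2 gave 180 genes no adjusted p.

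Same-numbered D and C libraries correlated in their deviations from the group means at 0.14, 0.26 and 0.22, US + D and C at 0.02, 0.75 and 0.28, D and US at -0.02, -0.08 and 0.11, US + D and US at -0.06, -0.28 and -0.25, and US + D and D at 0.23, 0.42 and -0.10. Since not every correlation exceeded 0.1, the numbers were not taken to pair the drought libraries with the others. The replicate block gave 0 calls and 1597 genes at an unadjusted p under 0.05.

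Of 923 values of named genes under other settings, 13 reversed, all in 4 genes that were not nominally higher or lower. Proline dehydrogenase (Solyc02g089620.3.1, -0.64) was 0.49 with drought alone in the model. MTD1 (Solyc08g061490.3.1, -0.19) ranged from -0.50 to 0.088 with 1 library left out. The jasmonate ZIM domain protein (Solyc08g036620.4.1, -0.32) was 2.24 in voom, 0.39 with drought alone, 1.82 with the block, 0.45 after thinning, and from -1.17 to 1.87 with 1 library left out. notabilis (Solyc07g056570.1.1, 0.06) ranged from -0.081 to 0.36. The cause was not tested.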

Other observations

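Described genes outside the families were chosen here after their values were seen, and none had an edgeR adjusted p under 0.05. In isoprenoid metabolism, farnesyl pyrophosphate synthase (Solyc10g005840.4.1) had a log2 difference of 0.54 (standard error 0.12, 27.5 CPM in drought and 19.0 CPM without), while geranylgeranyl pyrophosphate synthase 1 (Solyc11g011240.1.1) had -1.89 (0.794 CPM in drought and 3.11 CPM without) and 3-hydroxy-3-methylglutaryl-coenzyme A reductase 3 (Solyc03g032020.4.1) had -0.64 (24.4 CPM in drought and 36.1 CPM without). Phosphoethanolamine N-methyltransferase (Solyc12g040790.2.1), on the way to phosphocholine, had -0.87, with -0.75 for D over C and -0.98 for US + D over US.

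The brassinosteroid transcription factor BES1/BZR1 (Solyc07g062260.3.1) had a log2 difference of 0.91, with 1.14 for D over C and 0.69 for US + D over US. The telomere proteins Cst complex subunit ctc1 (Solyc07g021115.1.1) and telomere repeat-binding factor 3 (Solyc10g080300.1.1) had log2 differences of 0.60 and 0.54. A cationic amino acid transporter (Solyc02g070280.3.1) had -0.80, NRT1/PTR family 5.2 (Solyc09g090470.3.1) -1.29, and a phosphoribohydrolase of cytokinin activation (Solyc01g005680.4.1) -0.77, the last with -0.86 for D over C and -0.68 for US + D over US.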
